A study of Mus musculus with 20 samples.

Results

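The comparison described here sets 5 ovary libraries labelled LNPIFN-Y against 5 labelled Model, which together are 10 of the 20 libraries of the series. The members were taken by their label alone, and all 15723 genes that passed a filter on low counts were tested. Model libraries are labelled as ovarian cancer with no agent, and LNPIFN-Y libraries as ovarian cancer that received LNPIFN-Y. Per the series text, the host strain is C57BL/6, and the tumour was started by placing ID8Luci cells (ID8 is a mouse line derived from ovarian surface epithelium) into the ovarian bursa. In that text the bursa had first been expanded with particles named ptLNPFSHα&β, so both groups would carry that earlier treatment. The same text describes tumour growth over 60 days, intraperitoneal injections between day 62 and day 95, and an endpoint at day 97, for arms that do not include LNPIFN-Y by name. The name without the prefix pt is not explained there, and pt stands for targeting by a peptide. No library is labelled as an empty particle or as a particle with another mRNA, so the interferon-γ mRNA and its carrier cannot be told apart. The text also speaks of single-cell sequencing, whereas the table analysed has 1 column of gene counts per library, and its values are treated here as bulk tissue. Ages, doses and the number of animals behind a group are not given in the sources used here. If the 5 libraries of a group do not come from separate animals, the p-values below measure the spread between samples that may be technical.

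Interferon-γ (IFN-γ) is a cytokine made chiefly by T cells and natural killer (NK) cells. It binds a receptor made of the Ifngr1 and Ifngr2 chains, and the kinases Jak1 and Jak2 bound to that receptor then activate transcription factors that bind GAS elements in promoters. Proteins made in this first wave, among them the factor Irf1, bind ISRE elements in a second set of genes. In tumours the cytokine is known for raising antigen presentation and T cell attracting chemokines, and also for raising the inhibitory ligand PD-L1. Control libraries (ovary with no treatment label) entered the fit and are given where a background level is needed.

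All values are expected counts scaled to library size (CPM). Library totals of the 10 libraries lay between 16529892 and 17184097 counts, and between 16441 and 17663 genes had a count. A gene is said to have risen or fallen where its edgeR quasi-likelihood p, after Benjamini-Hochberg adjustment over the whole table, was under 0.05. A difference is given as a log2 fold change, LNPIFN-Y minus Model, with its SE. Some libraries stood apart before any comparison. Model 3 had the highest level of MHC class II genes among the Model libraries, with a summed level of 4991 CPM where the group's median was 941 CPM. Genes of oocytes and granulosa cells were lowest in LNPIFN-Y 5, followed by LNPIFN-Y 1, and LNPIFN-Y 5 was at 0 CPM for Zp3, a protein of the egg coat named here after its values were seen, although its label is ovary. Oviduct genes varied from library to library in both groups.

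Of the 15723 genes, 825 rose (5.25%) and 89 fell (0.566%). These shares are the background for each list count below. Those that rose had a median log2 fold change of 1.83, with 352 of them at 2 or more and 39 at 4 or more. Those that fell had a median of -0.55, and 47 of the 89 differed by less than 1.5-fold. The median of all tested genes was -0.03, and 45.5% of them had a fold change above 0. In 626 of the genes that rose, each LNPIFN-Y library lay above each Model library, and 45 of those that fell showed the opposite order. Over all genes that full separation was found in 4.33% upward and 0.884% downward. Without Model 3 the counts were 1246 and 486, and without LNPIFN-Y 5 they were 664 and 39. With each of the 10 libraries left out in turn, 578 of the 825 passed the test in every fit, and 15 of the 89.

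The 10 genes with the highest fold changes among those that rose without overlap (mean log2 CPM 1 or above, clone-type symbols left out) were Gbp10, Ubd, Apol11b, Gbp2b, Serpina3f, Apol11a, Cxcl9, Iigp1, Cxcl10 and Gbp2. The windows below are shown because their genes sit at the top of the response (Gbp2, Gbp2b, Apol11a, Apol11b, Cxcl10) or act inside the pathway (Irf1, Socs1, Ifngr2). They are RefSeq sequence of GRCm38.p6, the 250 bases before each start site on the gene's own strand. Capitals mark matches to GAS, searched as TTCNNNGAA, or to ISRE, searched as GAAA, a pair of free bases (NN) and GAAA again, on both strands. They were chosen after the matches had been seen.

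Irf1, chr11:53769764-53770013, plus strand: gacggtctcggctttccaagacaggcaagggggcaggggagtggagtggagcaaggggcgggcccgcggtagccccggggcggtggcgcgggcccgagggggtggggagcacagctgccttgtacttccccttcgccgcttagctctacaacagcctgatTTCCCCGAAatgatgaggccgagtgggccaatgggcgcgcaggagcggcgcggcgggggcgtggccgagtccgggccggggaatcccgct
Socs1, chr16:10785537-10785786, minus strand: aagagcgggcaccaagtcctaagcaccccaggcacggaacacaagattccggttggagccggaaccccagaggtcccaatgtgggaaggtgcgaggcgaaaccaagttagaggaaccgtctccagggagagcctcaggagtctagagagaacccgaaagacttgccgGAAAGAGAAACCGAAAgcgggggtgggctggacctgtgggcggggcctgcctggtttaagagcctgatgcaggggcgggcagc
Cxcl10, chr5:92348890-92349139, minus strand: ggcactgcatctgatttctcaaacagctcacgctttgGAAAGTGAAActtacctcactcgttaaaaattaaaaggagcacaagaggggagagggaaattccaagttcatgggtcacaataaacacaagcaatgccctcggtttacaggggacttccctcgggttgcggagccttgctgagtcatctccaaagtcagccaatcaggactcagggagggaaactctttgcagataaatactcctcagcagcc
Gbp2, chr3:142620413-142620662, plus strand: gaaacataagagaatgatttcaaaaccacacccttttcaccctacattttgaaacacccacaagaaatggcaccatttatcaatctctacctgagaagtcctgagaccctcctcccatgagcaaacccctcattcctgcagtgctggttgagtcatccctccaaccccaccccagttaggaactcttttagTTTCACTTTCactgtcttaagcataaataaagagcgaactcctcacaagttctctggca
Gbp2b, chr3:142594597-142594846, plus strand: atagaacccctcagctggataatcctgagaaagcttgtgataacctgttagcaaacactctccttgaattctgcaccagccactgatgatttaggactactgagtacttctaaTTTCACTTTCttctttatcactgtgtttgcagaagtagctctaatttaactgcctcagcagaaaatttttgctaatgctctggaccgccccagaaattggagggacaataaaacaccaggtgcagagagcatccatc
Apol11b, chr15:77643287-77643536, minus strand: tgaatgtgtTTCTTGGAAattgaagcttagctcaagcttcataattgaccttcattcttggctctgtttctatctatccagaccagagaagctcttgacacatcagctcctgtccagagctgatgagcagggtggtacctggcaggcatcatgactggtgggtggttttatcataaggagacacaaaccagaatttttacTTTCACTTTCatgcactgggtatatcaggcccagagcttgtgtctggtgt
Ifngr2, chr16:91546809-91547058, plus strand: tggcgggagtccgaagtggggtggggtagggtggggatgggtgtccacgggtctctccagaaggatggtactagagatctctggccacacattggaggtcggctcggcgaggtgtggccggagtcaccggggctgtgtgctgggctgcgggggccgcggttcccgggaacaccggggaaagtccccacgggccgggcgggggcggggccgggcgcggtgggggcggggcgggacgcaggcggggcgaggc

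In the Irf1 window the GAS match begins 90 bases before the start site, and no ISRE match is present. Socs1 has a pair of overlapping ISRE matches that begin 83 and 77 bases before the start. The ISRE match begins 213 bases before the start in Cxcl10, 59 in Gbp2 and 137 in Gbp2b. Apol11b has a GAS match at 241 bases and an ISRE match at 50 bases. The Apol11a window, chr15:77508019-77508268 on the plus strand, equals it in all 250 bases. Ifngr2, whose level did not pass the test, has neither match in this window.

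Across all genes the share of promoter windows with a match differed by the size of the change. These windows run from 250 bases before the start to 50 after it, and 639 of the 825 genes that rose have at least 1. An ISRE match was found in 25.6% of 297 windows of genes with a log2 fold change of at least 2, in 12.3% of 302 windows at 1 to 2, and in 7.22% of 194 windows under 1. It was found in 2.56% of 14946 windows of genes that did not pass the test and in 3.44% of all 32851 RefSeq windows. GAS shares were 15.8%, 12.3% and 9.28% in the same order of size, 6.65% where the test was not passed and 8.3% over all windows. Of the 95 windows of genes that fell, 4 held GAS (4.21%) and 0 held ISRE. These are descriptions of letters in a window, with no test.

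**Figure D1:**
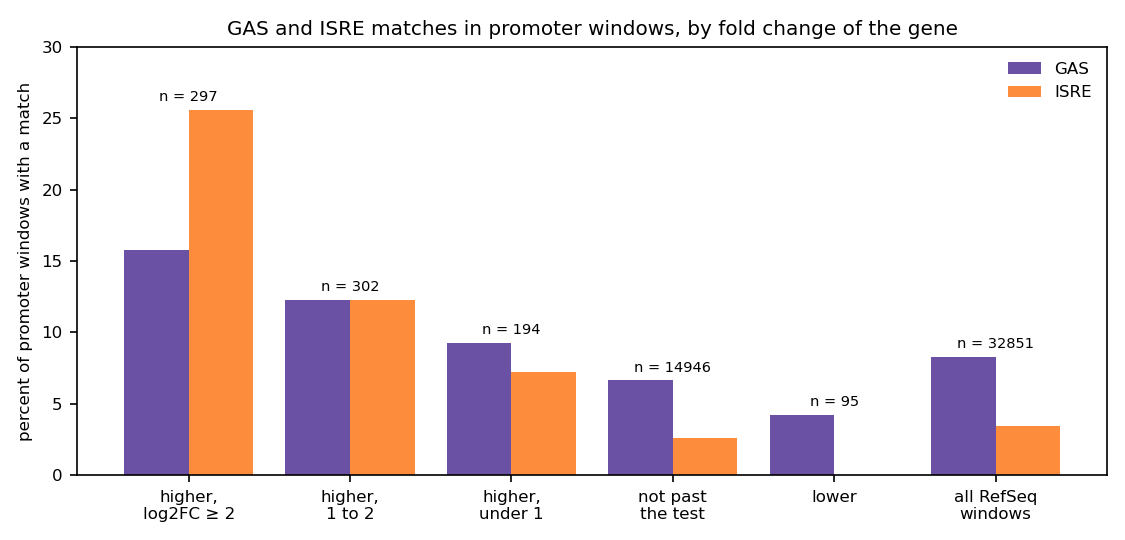
Share of promoter windows with at least 1 GAS or ISRE match (vertical axis, percent), by the result of the window's gene in LNPIFN-Y against Model, with the number of windows above each pair of bars. The ISRE bar is 25.6% for genes with a log2 fold change of at least 2 and 2.56% for genes that did not pass the test.

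The genes of the receptor and its kinases did not pass the test, and several genes downstream of them rose. In the list of 13 IFN-γ signalling genes, 5 rose and 0 fell, and the list's median was 0.55 where that of all genes was -0.03. Ifngr1 was at 64.1, 69.3, 69.7, 56.1 and 54.8 CPM in Model 1 to 5 and at 138, 78.5, 61.4, 71.7 and 109 CPM in LNPIFN-Y 1 to 5. The groups overlapped, and its log2 fold change was 0.55 ± 0.21 (SE; edgeR adjusted p = 0.165). That of Ifngr2 was 0.05 ± 0.12 (adjusted p = 0.862), of Jak1 0.09 ± 0.18 (adjusted p = 0.816) and of Jak2 0.60 ± 0.30 (adjusted p = 0.292). Transcripts of Ifng itself were scarce, at 0.116 ± 0.0862 CPM (mean ± SD, n = 5) in Model and 1.18 ± 1.15 CPM in LNPIFN-Y. Ifng rose, with a log2 fold change of 3.28 ± 0.70 (adjusted p = 0.00584), or 2.56 without LNPIFN-Y 2, the library with the highest value, 3.03 CPM. The counts do not say whether Ifng reads come from the delivered mRNA or from the mouse gene.

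Stat2, which works together with Irf9 at ISRE elements, was at 57.8, 69.2, 60.6, 50.1 and 50.1 CPM in Model 1 to 5 and at 328, 286, 242, 301 and 372 CPM in LNPIFN-Y 1 to 5. The groups did not overlap, and it rose by 2.41 ± 0.15 on the log2 scale (edgeR adjusted p = 1.46e-08). Stat4 and Stat6, which serve interleukin receptors, rose with adjusted p-values of 0.0449 and 0.0365. Both lost the call without LNPIFN-Y 1, 2 or 5, or without Model 1, 4 or 5, and Stat6 also without Model 2. Stat3 had a log2 fold change of 0.58 ± 0.19 (adjusted p = 0.0911), and 0.72 with an adjusted p of 0.0235 without Model 3. Stat5a, at -0.73 ± 0.28 (adjusted p = 0.158), passed the test downward without Model 3, at -0.94 (adjusted p = 0.0203). Stat5b was at -0.11 ± 0.19 (adjusted p = 0.789).

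The interferon regulatory factor genes Irf1, Irf2, Irf7, Irf8 and Irf9 rose. Irf1 was at 50, 61.2, 73.3, 42.2 and 40.1 CPM in Model 1 to 5 and at 422, 238, 192, 273 and 354 CPM in LNPIFN-Y 1 to 5, a log2 fold change of 2.47 ± 0.22 (edgeR adjusted p = 5.13e-07). Irf7, an amplifier of type I interferon output, had the largest of these changes, 3.69 ± 0.30 (adjusted p = 1.84e-07). Irf9 rose by 1.28 ± 0.10 (adjusted p = 1.37e-07), from 54.2 ± 6.52 to 131 ± 8.48 CPM (SD, n = 5). Irf2, which can compete with Irf1 for its sites, rose by 0.79 ± 0.14 (adjusted p = 0.00108). Irf3, the factor activated by RNA and DNA sensors, was at 61 ± 3.3 CPM in Model and 58.9 ± 4.35 in LNPIFN-Y (adjusted p = 0.683). Irf5 had a log2 fold change of 1.25 ± 0.42 (adjusted p = 0.0972). Model 3, at 60.2 CPM, was the highest Model library for Irf5, and without it the change was 1.96 (adjusted p = 0.00045).

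Of the genes that restrain the pathway, Socs1 and Ptpn6 rose. Socs1, which binds and blocks the receptor's kinases, was at 3.24, 6.97, 5.1, 4.13 and 3.39 CPM in Model 1 to 5 and at 47.9, 17.9, 15.3, 19.2 and 25.6 CPM in LNPIFN-Y 1 to 5. It rose by 2.46 ± 0.34 (edgeR adjusted p = 8.91e-05) without overlap. The phosphatase gene Ptpn6, a marker of blood cells as well, rose by 1.93 ± 0.32 (adjusted p = 6.93e-04). Socs3 was at 0.52 ± 0.31 (adjusted p = 0.383), Cish at -0.09 ± 0.33 (adjusted p = 0.912), and the phosphatase gene Ptpn2 at 0.09 ± 0.08 (adjusted p = 0.589).

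**Figure D2:**
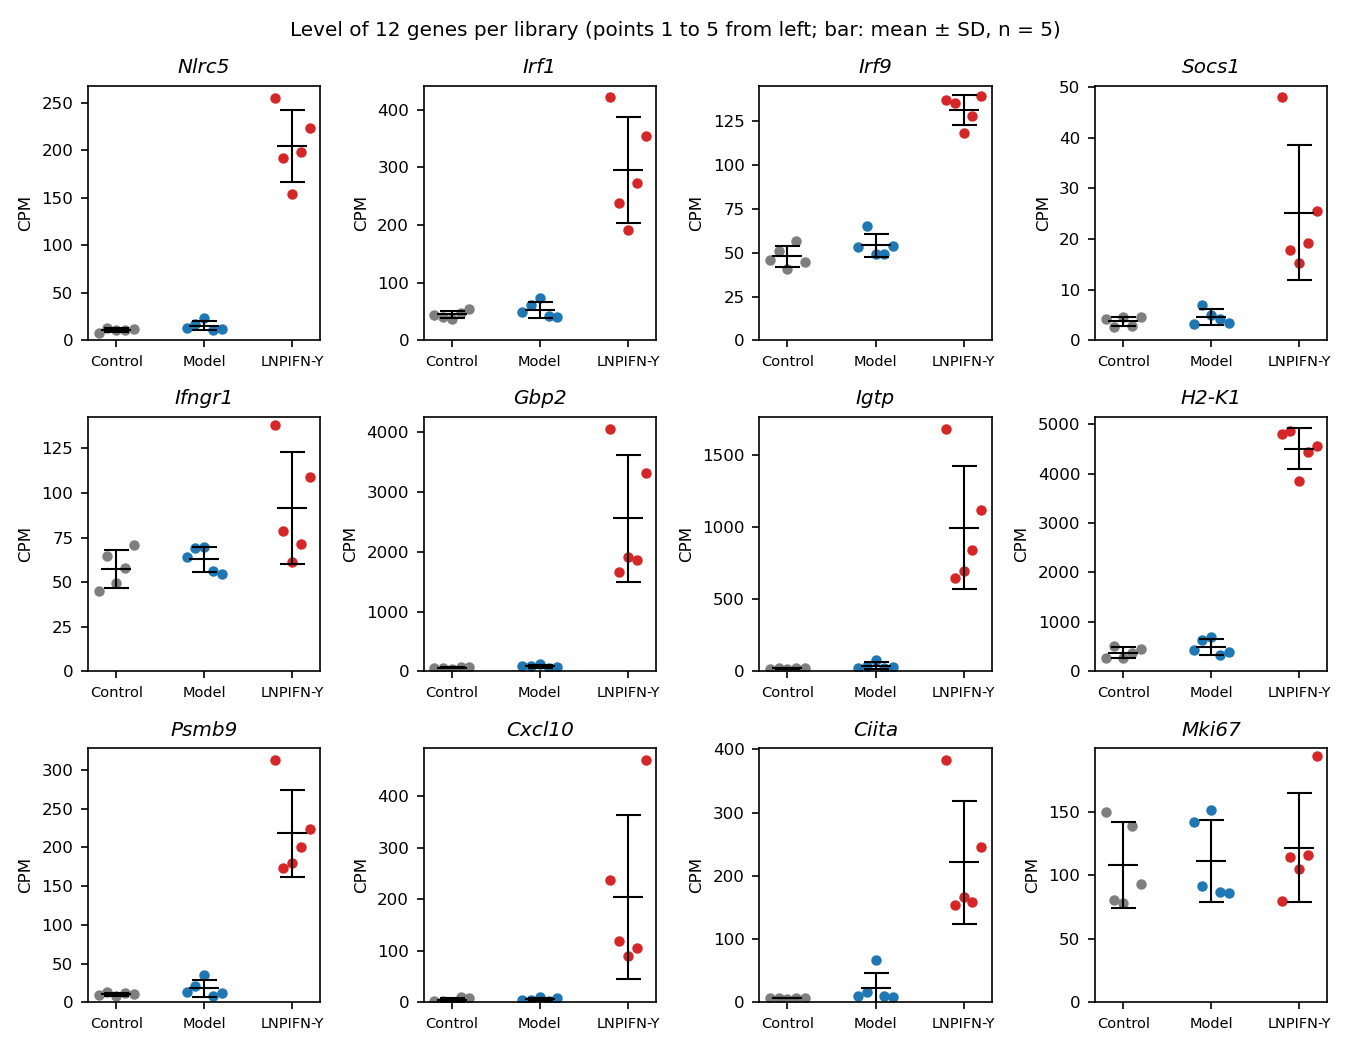
CPM (vertical axis from 0) of 12 genes in each Control, Model and LNPIFN-Y library, with points for libraries 1 to 5 from left to right and a bar at the mean ± SD of 5 libraries. Nlrc5 lies between 11.4 and 23.9 CPM in Model and between 154 and 255 CPM in LNPIFN-Y, while the points of Ifngr1 and Mki67 overlap between the groups.

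The IFN-induced GTPases made up the highest block of the response. All 10 tested guanylate-binding protein (GBP) genes, whose products coat pathogen membranes and aid inflammasome activation, rose, with log2 fold changes between 2.28 and 7.53 and a median of 4.23. All 10 rose in each fit that left out 1 library. Their summed level ran from 317 to 637 CPM in the Model libraries and from 4983 to 11943 CPM in LNPIFN-Y. Gbp10 was at 2.5, 3.6, 6.07, 1.82 and 3.45 CPM in Model 1 to 5 and at 1149, 372, 427, 562 and 721 CPM in LNPIFN-Y 1 to 5, a 185-fold difference (edgeR adjusted p = 1.97e-08). Gbp2 was at 87.7 ± 25.2 CPM in Model (SD, n = 5) and 2558 ± 1063 CPM in LNPIFN-Y, 29.2-fold higher (adjusted p = 1.46e-08). Gbp5, which promotes inflammasome assembly, was 25.3-fold higher (adjusted p = 1.61e-08). The smallest change was that of Gbp8, 2.28 ± 0.53 (adjusted p = 0.0121), with 5.35 CPM in Model 1 and 128 CPM in Model 2. LNPIFN-Y 1 was the highest library for all of the GBP genes named here. GBP genes are near copies of one another, so reads may have been shared between them in the authors' counting.

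Of 12 tested immunity-related GTPases (IRG), which act on vacuoles that hold microbes, 11 rose, with a list median of 3.85. Iigp1 was at 41.1, 48.6, 73.5, 32 and 38.1 CPM in Model 1 to 5 and at 2004, 1125, 1067, 1640 and 1839 CPM in LNPIFN-Y 1 to 5, a log2 fold change of 5.04 ± 0.34 (edgeR adjusted p = 2.39e-08). The regulatory members Irgm1, Irgm2 and Igtp, which keep the others off host membranes, rose by 3.22 ± 0.26, 3.54 ± 0.25 and 4.68 ± 0.38 (adjusted p = 1.38e-07, 3.10e-08 and 1.74e-07). Gm12250, known as Irgb10, rose by 5.32 ± 0.47 (adjusted p = 4.99e-07). Tgtp1 and Tgtp2, a nearly identical pair whose reads cannot be assigned with certainty, rose by 4.03 ± 0.21 and 4.71 ± 0.33. The exception was Irgq, at 41.6 ± 1.77 CPM in Model and 34.4 ± 4.09 CPM in LNPIFN-Y (-0.27 ± 0.08; adjusted p = 0.0646). It passed the test downward without LNPIFN-Y 2, LNPIFN-Y 3 or Model 3 (adjusted p = 0.0345, 0.0233 and 0.0255).

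Genes best known from the type I interferon response rose with them. In the list of IFIT and other antiviral effectors, 16 of 21 rose (median 1.49). Ifit3, which binds viral RNA together with its relatives, was at 20, 17.7, 31.9, 11.9 and 16.1 CPM in Model and at 656, 339, 317, 365 and 530 CPM in LNPIFN-Y, 22.6-fold higher (edgeR adjusted p = 1.08e-07). Rsad2, the antiviral enzyme viperin, was 9.64-fold higher (adjusted p = 4.55e-07). Ifitm2, of a family that blocks virus entry, was at 202 ± 40.4 and 197 ± 16.9 CPM (adjusted p = 0.9). Among 14 OAS genes and RNA sensors, 12 rose, and 8 did without LNPIFN-Y 5, Model 4 or Model 5. The RNA helicase gene Ifih1 (MDA5) rose by 1.88 ± 0.17 (adjusted p = 5.66e-07) and its regulator Dhx58 by 2.61 ± 0.29 (adjusted p = 8.59e-06). Oas3 rose by 4.15 ± 0.75 (adjusted p = 0.00148), or 4.98 without Model 2. Mavs, the adaptor that these helicases share, was at 0.09 ± 0.32 (adjusted p = 0.901).

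All 12 tested genes of the p200 family, sensors of DNA, rose (median 2.61, lowest 1.99). Aim2, which starts an inflammasome on cytosolic DNA, rose by 1.99 ± 0.36 (edgeR adjusted p = 0.00161), and Ifi211 by 3.01 ± 0.44 (adjusted p = 1.91e-04). Ifi214 rests on 2 counts over the Model libraries and 48 over LNPIFN-Y, a ratio of 24 with an exact 95% counting interval of 6.29 to 204. Of 13 PARP genes and Dtx3l, 7 rose. Parp9, its partner Dtx3l and Parp14, enzymes of ADP-ribosylation tied to interferon signalling, rose by 2.23 ± 0.20, 2.25 ± 0.20 and 2.21 ± 0.21 (adjusted p = 5.66e-07, 5.66e-07 and 1.01e-06). Parp1, the DNA repair enzyme of the family, was at 0.02 ± 0.16 (adjusted p = 0.959). Schlafen genes, regulators of growth arrest in lymphocytes and of transfer RNA, rose in 6 of 9 cases, led by Slfn1 at 3.75 ± 0.49 (adjusted p = 5.39e-05) and Slfn8 at 2.97 ± 0.32 (adjusted p = 4.49e-06).

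The apolipoprotein L list had 8 of 10 tested genes risen, with a median of 3.26. Apol11b was at 0.398, 0.988, 0.425, 0.429 and 1.07 CPM in Model 1 to 5 and at 57.3, 47.7, 35.4, 45.1 and 34.8 CPM in LNPIFN-Y 1 to 5, 65.7-fold higher (edgeR adjusted p = 2.35e-08). Apol11a was 42.2-fold higher, at a mean of 12.3 ± 4.16 CPM in LNPIFN-Y (SD, n = 5; adjusted p = 5.19e-07). These are the 2 genes whose printed promoter stretches are identical, and reads of such close relatives may have been split in counting. Apol10b rose by 3.64 ± 0.30 (adjusted p = 2.19e-07).

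All 6 genes of the ubiquitin-like modifier list rose: Isg15, the modifier itself, its enzymes Uba7, Ube2l6 and Herc6, its protease Usp18, and Ubd, a modifier that marks proteins for the proteasome. Isg15 was at 11, 16.7, 14.2, 6.28 and 7.41 CPM in Model and at 138, 88.8, 69.6, 85.2 and 146 CPM in LNPIFN-Y (3.25 ± 0.34; edgeR adjusted p = 3.50e-06). Ubd was at 0.34 ± 0.29 CPM in Model and 41.3 ± 16.9 CPM in LNPIFN-Y, a log2 fold change of 6.91 ± 0.64 (adjusted p = 6.83e-07), or 7.54 without Model 3. Serpina3f, a serine protease inhibitor of the antichymotrypsin cluster, was at 1.65, 1.34, 2.31, 3.27 and 1.24 CPM in Model and at 128, 72.9, 59.6, 119 and 58.1 CPM in LNPIFN-Y (5.47 ± 0.60; adjusted p = 6.10e-06).

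Genes of antigen presentation by MHC class I rose, from the regulator to the peptide supply. Nlrc5, the class I transactivator, was at 13, 17.5, 23.9, 11.4 and 12.3 CPM in Model 1 to 5 and at 255, 192, 154, 198 and 223 CPM in LNPIFN-Y 1 to 5 (3.71 ± 0.22; edgeR adjusted p = 8.30e-09). Of 16 tested class I chains, 12 rose, and their summed level ran from 1333 to 2846 CPM in Model and from 13299 to 17803 CPM in LNPIFN-Y. H2-Q4 and H2-T22, both non-classical chains, rose by 3.45 ± 0.18 and 2.83 ± 0.17 (adjusted p = 1.56e-09 and 8.30e-09). The classical chains H2-K1 and H2-D1 and their shared light chain B2m, named after their values were seen, rose by 3.17 ± 0.22, 2.82 ± 0.27 and 2.99 ± 0.29 (adjusted p = 3.10e-08, 1.31e-06 and 1.43e-06). H2-Q10, known as a chain secreted by liver, was at 7.65 ± 5.39 and 10.4 ± 7.23 CPM (adjusted p = 0.826). MHC genes are alike in sequence, so their counts may be shared between members.

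In the list of immunoproteasome and peptide loading genes, 11 of 14 rose (median 2.05). Tap1 and Tap2, the peptide transporter, rose by 3.46 ± 0.22 and 2.22 ± 0.20 (edgeR adjusted p = 1.46e-08 and 5.61e-07), Tapbp by 1.97 ± 0.27 (adjusted p = 9.12e-05) and the peptide-trimming enzyme gene Erap1 by 1.21 ± 0.12 (adjusted p = 2.30e-06). The general chaperones Canx and Calr were at 0.07 ± 0.11 and 0.31 ± 0.14 (adjusted p = 0.74 and 0.236), and Calr passed the test at 0.44 without Model 2 (adjusted p = 0.0472). Psme1 and Psme2, subunits of the proteasome's activator cap, rose by 1.67 ± 0.11 and 1.60 ± 0.14 (adjusted p = 1.97e-08 and 5.13e-07).

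The 3 inducible catalytic subunits rose and the 3 standard ones that they replace did not pass the test. Psmb8 was at 31.8, 45.2, 62, 22 and 23.7 CPM in Model 1 to 5 and at 481, 360, 316, 360 and 453 CPM in LNPIFN-Y 1 to 5 (3.42 ± 0.26; edgeR adjusted p = 9.64e-08). Psmb9 rose by 3.58 ± 0.32 and Psmb10 by 2.48 ± 0.19 (adjusted p = 5.06e-07 and 9.02e-08). Psmb5, Psmb6 and Psmb7 had means of 107, 113 and 111 CPM in Model and 89.9, 113 and 123 CPM in LNPIFN-Y (adjusted p = 0.362, 0.986 and 0.205). Per gene length, the level of Psmb8 relative to Psmb5 ran from 0.143 to 0.597 in Model and from 2.46 to 4.6 in LNPIFN-Y. The ratio of Psmb9 to Psmb6 ran from 0.0805 to 0.365 and from 1.59 to 3.05, and that of Psmb10 to Psmb7 from 0.168 to 0.317 and from 1.02 to 1.48. In each of the 3 pairs the inducible transcript was thus below the standard one in all 5 Model libraries and above it in all 5 LNPIFN-Y libraries. In the list of 14 standard core genes, which includes Psmb5, Psmb6 and Psmb7, 6 rose, by at most 0.72 on the log2 scale, which is the value of Psma5 with an SE of 0.11 (edgeR adjusted p = 2.49e-04). That count fell to between 2 and 3 without Model 1, Model 4 or Model 5, and to 1 with tissue covariates.

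**Figure D3:**
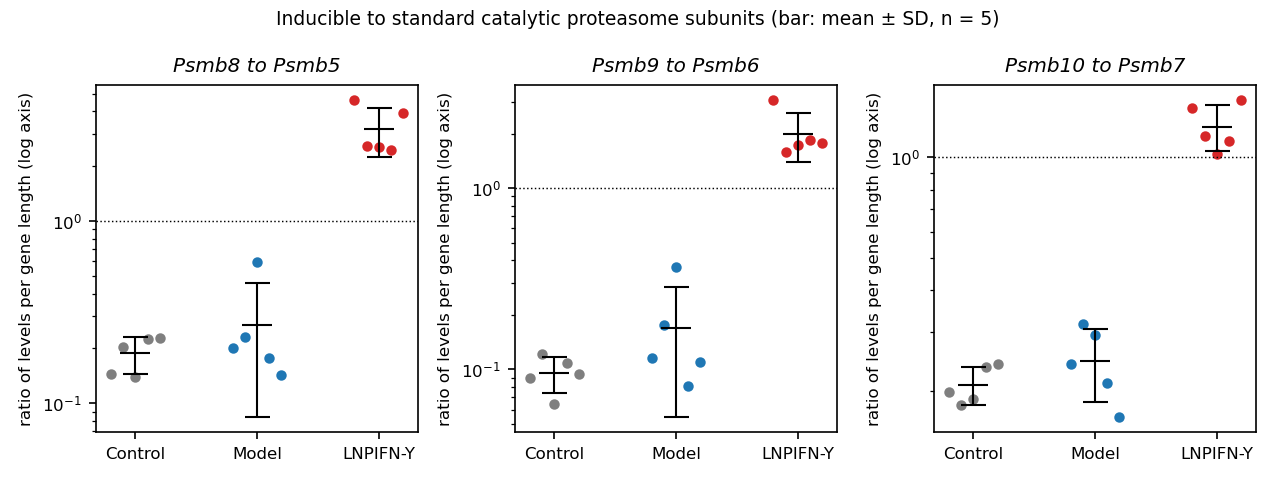
Ratio of the inducible to the standard catalytic proteasome subunit, each level divided by gene length (vertical log axis), in each Control, Model and LNPIFN-Y library, with the mean ± SD of 5 libraries. The dotted line marks equal levels, and all 5 LNPIFN-Y libraries lie above it in each of the 3 pairs, with Psmb8 to Psmb5 between 2.46 and 4.6.

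Class II presentation genes rose too, and the size of their change moved with Model 3. Ciita, the class II transactivator, was at 9.67, 16.3, 66.5, 9.6 and 8.43 CPM in Model 1 to 5 and at 383, 154, 167, 159 and 245 CPM in LNPIFN-Y 1 to 5. Its log2 fold change was 3.33 ± 0.54 (edgeR adjusted p = 5.91e-04), and 4.32 without Model 3 (adjusted p = 1.62e-06). Of 15 class II genes, 12 rose, with a median of 2.56 that went to 3.56 without Model 3. When Model and LNPIFN-Y libraries were fitted alone the count was 6. H2-Ab1, a chain of the I-A molecule, rose by 2.93 ± 0.45 (adjusted p = 3.17e-04), or 3.80 without Model 3. H2-DMa, which edits the bound peptide, rose by 3.13 ± 0.40 (adjusted p = 3.90e-05), or 3.85 without that library. The constitutive factors Rfxap and Rfxank were at -0.21 ± 0.11 and -0.15 ± 0.13 (adjusted p = 0.295 and 0.574), and Rfx5 rose by 0.47 ± 0.11 (adjusted p = 0.0114), a call lost without Model 4 or Model 5 (adjusted p = 0.055 and 0.0602). H2-Ob, of the B cell inhibitor of H2-DM, was at 0.36 ± 0.59 (adjusted p = 0.784), and at 1.04 without Model 5.

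Chemokines that draw activated T cells rose most among the secreted signals. Cxcl10 was at 5.46, 4.82, 9.65, 3.22 and 8.03 CPM in Model 1 to 5 and at 238, 119, 90.5, 106 and 470 CPM in LNPIFN-Y 1 to 5, 32.8-fold higher (edgeR adjusted p = 1.64e-05). Cxcl9 was at 4.15, 9.59, 35.1, 2.15 and 7.13 CPM in Model and at 536, 440, 245, 299 and 788 CPM in LNPIFN-Y, a log2 fold change of 5.31 ± 0.73 (adjusted p = 9.67e-05), or 6.32 without Model 3. Their receptor gene Cxcr3 rose by 2.14 ± 0.28 (adjusted p = 6.04e-05), and Xcr1, the receptor of cross-presenting dendritic cells, by 3.69 ± 0.38 (adjusted p = 3.50e-06). Of 26 chemokines 11 rose and 1 fell, and the count of risen ones dropped to 7 without LNPIFN-Y 5, Model 1 or Model 5 and to 6 without Model 4. The one that fell, Ccl24, an attractant of eosinophils, was at 0.778 ± 0.263 and 0.126 ± 0.0987 CPM (-2.58 ± 0.69; adjusted p = 0.0317), a call lost without any of LNPIFN-Y 1, 2 and 5 and Model 1, 2 and 5. Ccl21a, a lymphatic chemokine, was at 93 ± 48.9 and 92.7 ± 37.4 CPM (adjusted p = 0.997).

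Of 5 endothelial adhesion genes 2 rose, Vcam1 by 2.22 ± 0.38 and Icam1 by 2.17 ± 0.37 (edgeR adjusted p = 8.14e-04 and 9.56e-04), while Icam2 and Selp were at 0.35 ± 0.29 and 0.24 ± 0.46 (adjusted p = 0.542 and 0.815). Of 15 genes that identify endothelium 0 passed the test (5.81% over all genes), with a median of 0.23. Among 21 cytokines and their receptors, 12 rose, and 7 did without Model 4 or Model 5. Il18bp, a secreted inhibitor of interleukin-18, was at 6.71, 19.1, 7.77, 9.07 and 7.41 CPM in Model and at 115, 132, 108, 116 and 98.9 CPM in LNPIFN-Y (3.51 ± 0.25; adjusted p = 3.50e-08). The genes of the interleukin-12 receptor's chains split: Il12rb1 was 16-fold higher (edgeR adjusted p = 1.50e-05), and Il12rb2 was at 8.09 ± 1.73 and 7.27 ± 1.24 CPM (adjusted p = 0.685).

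The transcript of the ligand PD-L1 rose, and that of its receptor did not pass the test. Cd274, which encodes the ligand PD-L1, was at 6.31, 8.14, 9.17, 4.77 and 6.9 CPM in Model 1 to 5 and at 333, 116, 122, 133 and 168 CPM in LNPIFN-Y 1 to 5, 24.7-fold higher (edgeR adjusted p = 7.02e-08). Pdcd1, which encodes the receptor PD-1, was at 3.8 ± 2.3 CPM in Model and 5.13 ± 2.86 CPM in LNPIFN-Y (0.43 ± 0.49; adjusted p = 0.668). The second ligand gene, Pdcd1lg2, rose by 3.61 ± 0.69 (adjusted p = 0.00232) at a mean of 1.91 ± 1.3 CPM. In all, 7 of 13 inhibitory checkpoint genes rose, and 4 did without Model 5. Lag3, an inhibitory receptor of activated T cells, rose by 1.97 ± 0.27 (adjusted p = 9.26e-05). Tigit was at 156 ± 10.3 CPM in Control, 159 ± 28.7 in Model and 147 ± 32.7 in LNPIFN-Y (adjusted p = 0.736), while the T cell gene Cd3g was at 1.15 ± 0.131 CPM in Control.

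Of 10 costimulatory genes 4 rose. Cd40 was 5.81-fold and Cd86 5.7-fold higher (edgeR adjusted p = 3.05e-04 and 5.44e-04), and Cd80 and Icosl, ligands of the same class, were at 0.85 ± 0.32 and 0.12 ± 0.18 (adjusted p = 0.147 and 0.746). In the list of 8 genes of the kynurenine pathway and tryptophan use, Ido1 and Wars were the 2 that rose. The kynurenine pathway consumes tryptophan, and Wars is not one of its enzymes. Ido1 was at 0.0569, 0, 0, 0 and 0.226 CPM in Model and at 8.49, 1.11, 1.88, 4.99 and 5.82 CPM in LNPIFN-Y, a log2 fold change of 6.12 ± 0.96 (adjusted p = 3.83e-04), or 7.67 without Model 5. Wars, the tryptophan transfer RNA ligase, rose by 1.76 ± 0.16 (adjusted p = 7.14e-07). Kmo, a later enzyme of the route, was at 0.37 ± 0.46 (adjusted p = 0.698), and 5 of the 8 genes rose without Model 3.

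Marker genes of T cells and NK cells were higher in LNPIFN-Y. In bulk tissue, more cells of a type and more RNA per cell cannot be told apart, and this holds for each marker below. Of 17 tested T cell markers 15 rose (88.2%, with 5.25% over all genes), with a median of 2.01. Their summed level ran from 54.4 to 135 CPM in Model and from 111 to 209 CPM in LNPIFN-Y. Cd8a, of killer T cells, was at 2.16, 1.39, 3.52, 1.29 and 3.17 CPM in Model 1 to 5 and at 10.8, 8.32, 6.49, 5.29 and 15 CPM in LNPIFN-Y 1 to 5 (1.99 ± 0.36; edgeR adjusted p = 0.00151). Cd3g, of the T cell receptor complex, rose by 2.42 ± 0.36 (adjusted p = 2.41e-04). Tcf7, a factor of naive and memory T cells that other tissues also express, was at 53.2 ± 27 and 51.5 ± 6.45 CPM (edgeR adjusted p = 0.953). The summed level of the T cell list had a mean of 79.7 CPM in Model and 156 CPM in LNPIFN-Y. Tcf7 thus made up most of that sum in Model.

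Of 17 NK and cytotoxic markers 16 rose (94.1%), with a median of 2.40 and summed levels of 12.8 to 25.7 CPM in Model and 78.2 to 144 CPM in LNPIFN-Y. Gzmb, the killer protease granzyme B, was at 0.626, 0.465, 0.182, 0.429 and 0.339 CPM in Model and at 9.53, 12.6, 8.71, 8.46 and 9.99 CPM in LNPIFN-Y, 23.7-fold higher (edgeR adjusted p = 3.10e-08). Klrc1, an inhibitory NK receptor, rose by 2.35 ± 0.23 (adjusted p = 1.19e-06). B and plasma cell markers had 0 of 16 past the test, with 13 above 0 and a median of 0.91. DESeq2 called 1 of them, as did the fit without Model 3 and that of the 2 groups alone, and sample quality weights called 2. Fcer2a, of B cells, was at 1.08 ± 0.522 and 1.07 ± 0.509 CPM (adjusted p = 0.999), and Fcrla was at 0.598 ± 0.27 and 2.09 ± 0.246 CPM (adjusted p = 0.0646).

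Cross-presenting dendritic cell markers rose in 5 of 8 cases, among them Clec9a, a receptor for dead cells, at 6.05 ± 1.76 and 35.7 ± 8.36 CPM (2.56 ± 0.22; edgeR adjusted p = 4.48e-07), and the factor gene Batf3 by 1.65 ± 0.35 (adjusted p = 0.00529). Of 21 genes shared by macrophages and monocytes 16 rose (median 1.99), and 9 had groups that did not overlap. Over all genes such separation was found in 4.33% upward and 0.884% downward. The count was 12 without LNPIFN-Y 5, Model 4 or Model 5, 11 with tissue covariates and 9 with the 2 groups fitted alone. The activating receptor gene Fcgr4 was at 4.89, 3.66, 14.2, 6.28 and 3.51 CPM in Model and at 155, 83.4, 45.8, 62 and 151 CPM in LNPIFN-Y (3.93 ± 0.58; adjusted p = 2.06e-04). Ly6c2, of inflammatory monocytes, rose by 4.17 ± 0.56 (adjusted p = 6.85e-05), or 4.76 without Model 3. Itgam, of myeloid cells in general, was at 35.6 ± 40.6 and 43.8 ± 29.4 CPM (adjusted p = 0.822), and its fold change was 1.29 without Model 2.

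Of 18 markers of resident macrophages 0 rose and 2 fell (5.25% and 0.566% over all genes). In that list 8 lay above 0 (the highest at 2.27), and the median was -0.34. That median was -0.59 without LNPIFN-Y 1 and -0.03 without Model 2. DESeq2 called 2 members higher, as did the fits without LNPIFN-Y 3 or Model 3. Cd209d, a lectin of tissue macrophages, summed to 26 counts in Model and 1 in LNPIFN-Y, a ratio of 26 with an exact 95% counting interval of 4.27 to 1.07e+03, and its 1 count lies in LNPIFN-Y 3. Cbr2 was at 13.8, 516, 9.23, 24.8 and 50.6 CPM in Model and at 14.7, 2.33, 10.8, 9.98 and 6.48 CPM in LNPIFN-Y (-3.79 ± 1.07; edgeR adjusted p = 0.0408). Its groups overlap, and without Model 2 its change was -1.47 (adjusted p = 0.367). In a separate list of 9 other dendritic cell genes 2 rose and 1 fell (5.25% and 0.566% over all genes), with 6 above 0 and a median of 0.40. The one that fell was Cd209a, a dendritic cell lectin, by 2.08 ± 0.52 on the log2 scale (adjusted p = 0.0197). That call was lost without LNPIFN-Y 5 or Model 2 (adjusted p = 0.0611 and 0.0685). F13a1 was at -0.19 ± 0.70 (adjusted p = 0.912).

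Effector genes of phagocytes were partly higher, 6 of 12 in the oxidative and metabolic list. Acod1, which makes itaconate, rose by 4.44 ± 0.78 (edgeR adjusted p = 0.00122), from 0.456 ± 0.357 to 10 ± 7.46 CPM. Slc11a1, a metal pump of phagosomes, rose by 2.33 ± 0.36 (adjusted p = 3.03e-04), and Cybb and Cyba, the membrane part of the NADPH oxidase, by 2.21 ± 0.39 and 1.11 ± 0.21 (adjusted p = 0.00135 and 0.00259). Nos2, the inducible nitric oxide synthase and a textbook IFN-γ target in mouse macrophages, was at 36.7, 17.4, 15.5, 46.4 and 19.9 CPM in Model and at 11.2, 59.5, 27.2, 35.3 and 29.4 CPM in LNPIFN-Y. The groups overlapped (0.26 ± 0.51; adjusted p = 0.825), and Control was at 44.2 ± 14.5 CPM. Sod2 was at 0.05 ± 0.22 (adjusted p = 0.921). In the complement list 5 of 19 rose (26.3%, with 5.25% over all genes). Among them were Serping1, the C1 inhibitor, from 199 ± 65.4 to 1169 ± 327 CPM (2.55 ± 0.26, edgeR adjusted p = 2.92e-06), and C1ra, by 1.85 ± 0.27 (adjusted p = 1.79e-04). Cd59a, which guards host cells from complement, was at -0.08 ± 0.22 (adjusted p = 0.871).

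**Figure D4:**
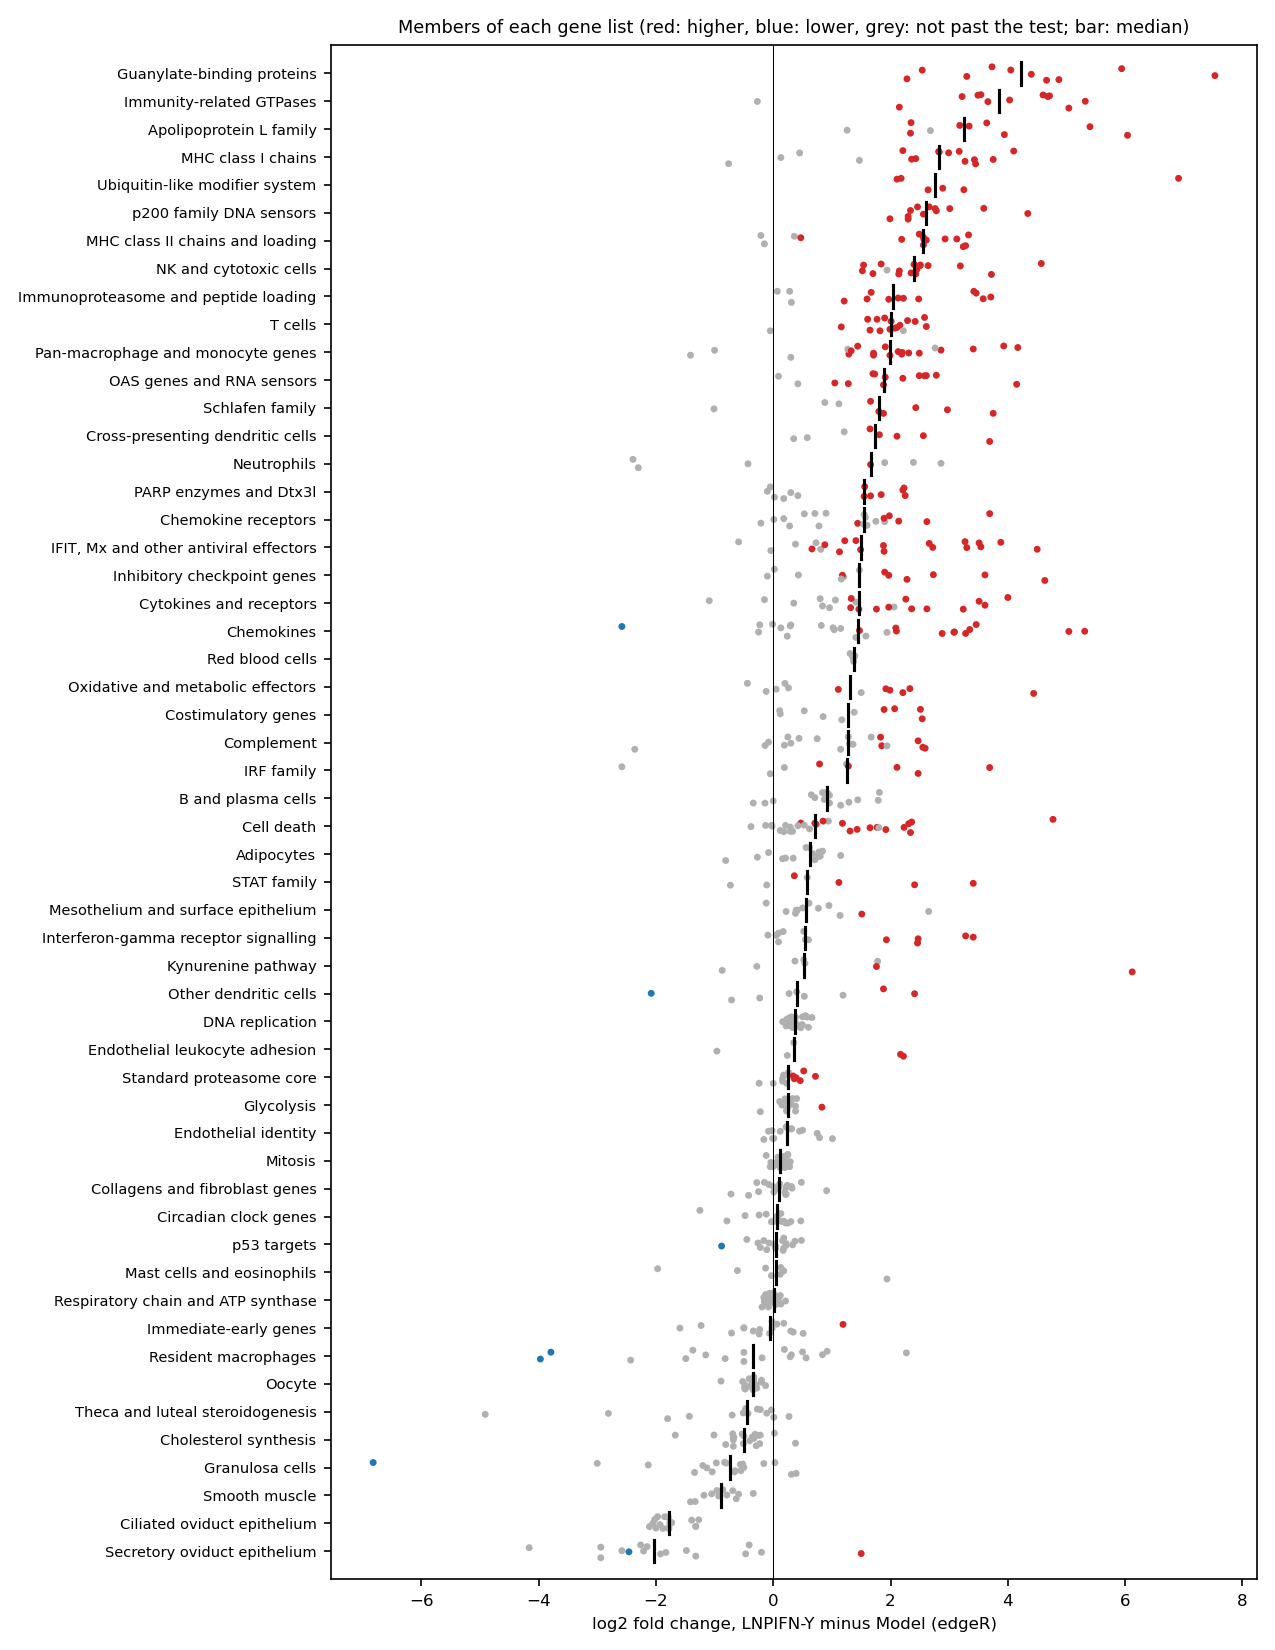
Log2 fold change, LNPIFN-Y minus Model (horizontal axis), of each tested member of the gene lists, sorted by the list's median (black bar), with genes that rose in red, genes that fell in blue and genes that did not pass the test in grey. The GBP list has the highest median, 4.23, and the respiratory chain list lies between -0.19 and 0.21.

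Cell death genes rose in 15 of 30 cases (50%, with 5.25% over all genes), with a median of 0.72, and 11 did without Model 4 or Model 5. Zbp1, a nucleic acid sensor that starts necroptosis, was at 5.52, 18.2, 12, 3.7 and 4.86 CPM in Model 1 to 5 and at 314, 197, 181, 229 and 291 CPM in LNPIFN-Y 1 to 5, 27.4-fold higher (edgeR adjusted p = 4.01e-07). Xaf1, an antagonist of apoptosis inhibitors, rose by 2.36 ± 0.27 (adjusted p = 1.31e-05), and Casp9, of mitochondrial apoptosis, was at 44.5 ± 6.96 and 44 ± 6.87 CPM (adjusted p = 0.961). Among 19 targets of p53, 0 rose and 1 fell (5.25% and 0.566% over all genes). Gadd45a fell by 0.88 ± 0.23 (adjusted p = 0.0223), a call lost without LNPIFN-Y 1, 2 or 4 or Model 2 or 4.

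Proliferation genes did not pass the test. Of 25 mitosis genes 0 did, with fold changes between -0.12 and 0.29 on the log2 scale. Mki67, the marker of cycling cells, was at 142, 91.8, 151, 86.8 and 85.9 CPM in Model 1 to 5 and at 79.5, 114, 105, 116 and 194 CPM in LNPIFN-Y 1 to 5 (0.13 ± 0.25; edgeR adjusted p = 0.822). All 26 DNA replication genes had fold changes above 0, from 0.16 to 0.66, and 0 passed the test, with 1 called by DESeq2 and 5 without Model 3. Across all genes 2936 had an unadjusted p under 0.05. The respiratory chain list, 32 genes of mitochondrial energy supply, had 0 past the test and a median of 0.01. Collagens and fibroblast genes had 0 of 20 (median 0.11), and circadian clock genes 0 of 17 (median 0.07). In the glycolysis list 1 of 16 rose (6.25%, near the 5.25% over all genes), and 0 did with tissue covariates. It was Pfkp, a phosphofructokinase, by 0.83 ± 0.19 (adjusted p = 0.0115), and it lost the call without Model 4 (adjusted p = 0.055). Of 17 immediate-early genes 1 rose (5.88%, near the 5.25% over all genes), with 6 above 0 and a median of -0.06. The gene called, Atf3, of the stress response, rose by 1.19 ± 0.33 (adjusted p = 0.0386). It lost the call without LNPIFN-Y 1 or 5 or Model 1, 2, 4 or 5.

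Of the 89 genes that fell, 34 had a log2 fold change of -1 or below, and the lowest was -6.82, that of Grem1, which rests on few counts in LNPIFN-Y. The 10 lowest by the naming rule were Klk1, Fam171a2, Psd, Pik3r3, Ggnbp1, Ece2, Pcp4l1, Gnaz, Fkbp4 and Pkp4. Klk1, a tissue kallikrein, was at 2.56, 13, 1.7, 3.76 and 5.32 CPM in Model 1 to 5 and at 0.713, 0.873, 1.37, 1.58 and 0.198 CPM in LNPIFN-Y 1 to 5 (-2.46 ± 0.57; edgeR adjusted p = 0.0115), or -1.80 without Model 2 (adjusted p = 0.0484). Pik3r3, a regulatory subunit of PI3 kinase, fell by 1.16 ± 0.27 on the log2 scale (adjusted p = 0.0113), and Pcp4l1 by 0.98 ± 0.23 (adjusted p = 0.0118). These 3 are the ones of the 10 that passed the test in all fits that left out 1 library. The other 7 lost the call in at least 3 such fits each, among them Fkbp4, a co-chaperone of steroid receptors, at 294 ± 93.2 and 179 ± 27.6 CPM (adjusted p = 0.0214). Among genes named after their values were seen, Purb, a repressor that binds single-stranded DNA, was at 225, 231, 194, 226 and 244 CPM in Model and at 174, 174, 175, 181 and 174 CPM in LNPIFN-Y (-0.35 ± 0.08; adjusted p = 0.00816). Capn15, a calpain, was at 44.5 ± 4.17 and 33.3 ± 2.79 CPM (-0.42 ± 0.08; adjusted p = 0.00191). For both, the groups did not overlap, though the difference was under 1.5-fold.

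Model 2 had the highest level of Klk1, Fam171a2, Psd, Pik3r3, Ece2, Pcp4l1, Fkbp4 and Pkp4, and it was also the library with the highest secretory oviduct and smooth muscle list means. By summed level, Model 5 was the highest Model library in the secretory list, at 10010 CPM, with Model 2 at 9924 CPM. All 18 ciliated oviduct genes had fold changes below 0 (median -1.79) and 0 passed the test. The median was -5.09 without LNPIFN-Y 3 and -0.60 without Model 5, the libraries with the highest ciliated level of their groups, and 1 member fell in the fit without LNPIFN-Y 3. Their summed level ran from 19.6 to 1490 CPM in Model and from 19.1 to 594 CPM in LNPIFN-Y. In the secretory oviduct list 1 of 16 genes rose (6.25%, near the 5.25% over all genes) and 1 fell (0.566% over all genes). The list's median was -2.03, with sums of 319 to 10010 CPM and 743 to 4955 CPM. That median was -2.76 without LNPIFN-Y 3 and -1.19 without Model 2. With tissue covariates 0 members passed the test, but the list's own genes enter those covariates, so that fit cannot judge them. Klk1 is a member of that list, and the one that rose, Cp (the plasma copper carrier ceruloplasmin), lost the call without LNPIFN-Y 5, Model 2, Model 4 or Model 5. Smooth muscle genes had 0 of 12 past the test, all below 0, with sums of 1673 to 6259 and 1042 to 2355 CPM. With these oviduct lists and the granulosa and oocyte lists as covariates, 553 genes rose and 24 fell, and 15 of the 89 were still called lower.

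Ovarian cell types varied widely within both groups. Of 20 granulosa cell genes 0 rose and 1 fell (5.25% and 0.566% over all genes), with a median of -0.73. Their summed levels were 3013 to 5958 CPM in Model and 1080 to 4167 CPM in LNPIFN-Y. Grem1, a BMP antagonist of follicles, was the one that fell. Its counts summed to 449 in Model, most of them in Model 2 and Model 4, and to 3 in LNPIFN-Y, a ratio of 150 with an exact 95% counting interval of 50.9 to 728. Its groups overlap, and 7 of the 10 fits without a library lost the call. All 19 oocyte genes lay below 0 (median -0.34) with 0 past the test, and their sums ran from 111 to 538 CPM in Model and from 4.63 in LNPIFN-Y 5 to 419 CPM. Steroidogenic genes of theca and luteal cells had 0 of 14 past the test. Cyp17a1, which makes androgens, was at 1.25, 78.6, 3.22, 222 and 45.1 CPM in Model and at 5.06, 1.63, 1.54, 2.68 and 0.728 CPM in LNPIFN-Y (-4.91 ± 1.65; edgeR adjusted p = 0.101). Star, which brings cholesterol into mitochondria, was at 647 ± 514 and 780 ± 524 CPM (adjusted p = 0.881). In the list of mesothelium and surface epithelium genes 1 of 12 rose (8.33%, with 5.25% over all genes), with a median of 0.55. Control libraries also carried these genes, with sums of 510 to 640 CPM, so the list is no measure of ID8 cells. The median was 1.27 without Model 3, when 4 members passed the test, and 0.13 without LNPIFN-Y 5, when 0 did. With the 2 groups alone, the replicate block or tissue covariates, 0 passed as well. The gene called, Upk1b, was at 334 CPM in LNPIFN-Y 5, and without that library its change was 0.83 (edgeR adjusted p = 0.107). It also lost the call without Model 1, 2, 4 or 5.

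The mean of the GBP list, on a log2 scale centred on all 20 libraries, ran from -2.66 to -1.47 in the Model libraries and from 1.82 to 3.02 in LNPIFN-Y. That of the IRG list ran from -2.18 to -1.13 and from 1.63 to 2.49. LNPIFN-Y 2, 3 and 4, whose granulosa and oocyte means were above 0, had GBP means of 1.82, 1.85 and 2.07, and LNPIFN-Y 1 and 5, the libraries lowest in those cells, had 3.02 and 2.60. With tissue covariates, all 10 GBP genes, 11 of 12 IRG genes and 12 of 16 class I chains rose, as without them. In many other lists the number that rose was smaller with these covariates. T cell markers went from 15 to 11, chemokines from 11 to 6 and OAS genes and RNA sensors from 12 to 8. Cytokines and receptors went from 12 to 8 and NK and cytotoxic markers from 16 to 13. Macrophage and monocyte genes went from 16 to 11, cell death genes from 15 to 10 and standard proteasome genes from 6 to 1. Class II genes and the p200 family each went from 12 to 10, and antiviral effectors from 16 to 14. Schlafen genes, chemokine receptors and oxidative effectors each went from 6 to 4, and inhibitory checkpoint genes from 7 to 5. Costimulatory genes went from 4 to 3 and cross-presenting dendritic cell markers from 5 to 4. The covariates come from the same libraries, and their lists differed between the groups. The granulosa list mean was 0.56 in Model and -0.89 in LNPIFN-Y. Such a fit cannot fully separate tissue content from group, so the lost calls do not measure it. The part of tissue content in the genes that changed was not tested.

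**Figure D5:**
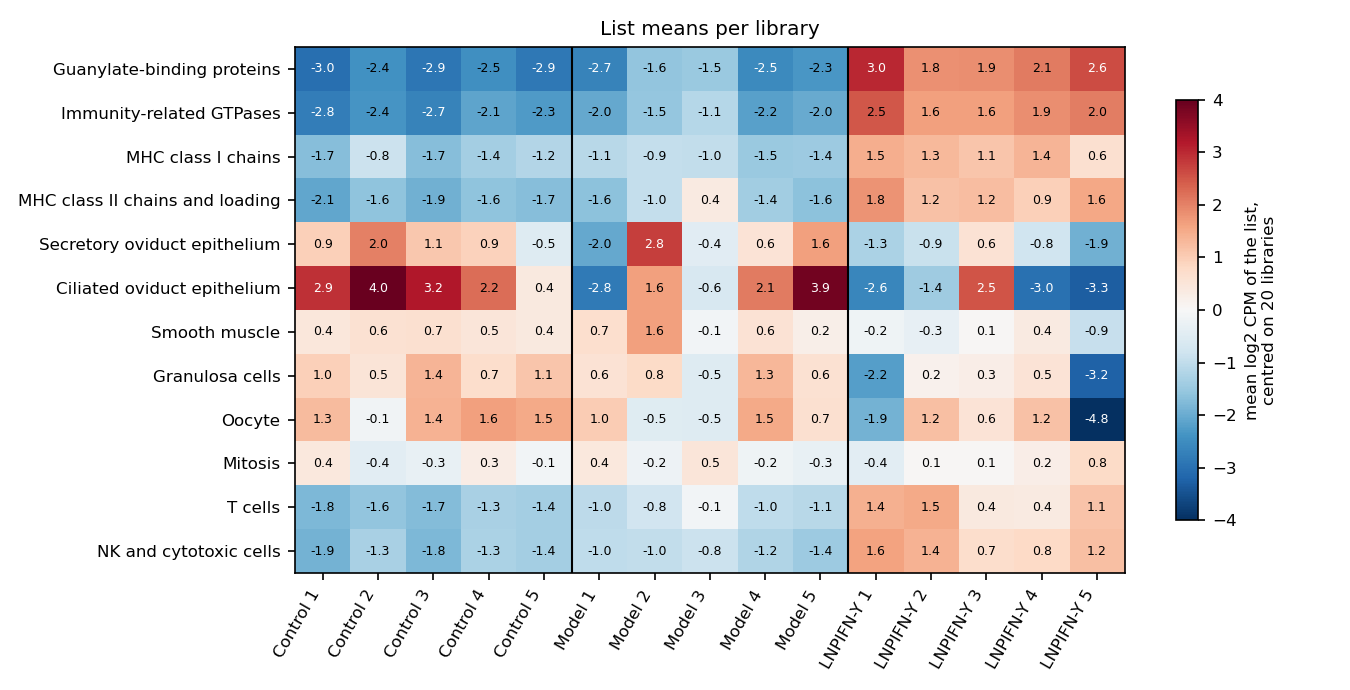
Mean log2 CPM of the genes in each list (rows), centred on all 20 libraries, for each Control, Model and LNPIFN-Y library (columns), with red above and blue below the centre. Interferon lists separate LNPIFN-Y from the rest, with GBP means between 1.82 and 3.02, while oviduct, oocyte and granulosa rows vary within each group.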

How the data were processed

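Messenger RNA of mouse ovary was read on a DNBSEQ machine, and the deposited table holds expected counts per gene for 20 libraries of 4 groups. HISAT2, RSEM, StringTie and DESeq2, with the build GRCm38.p6, are named per the submitters' processing notes, with no versions, and strandedness is not given in the sources used here. The expected counts deposited by the authors, of which 9.85% have decimals, were rounded to whole counts. Of 20960 genes, 1 row was blank and left out, 26 symbols that had become dates were restored by ID from a RefSeq table, and 61 IDs had no match there.

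Genes were kept by filterByExpr (minimum count 10), which left 15723. Library sizes were scaled by TMM, and a quasi-likelihood model with a term per group was fitted to all 20 libraries with edgeR 4.0.16 and limma 3.58.1 in R 4.3.3. The Benjamini-Hochberg adjusted p had to be under 0.05. The SE is the size of the log2 fold change divided by the root of F. CPM use TMM-scaled library sizes, and log2 CPM a prior count of 2. The code was tested on simulated data. Alternatives were DESeq2 1.42.0, other scalings, no filter on low counts, the 2 groups alone, sample weights, a replicate block, tissue list means as covariates and each library left out. Intervals of count ratios are exact at 95% and cover counting error only.

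Some genes that the naming rule covers are not reported here. Named genes were a fixed set of the pathway, the 10 highest and 10 lowest changes past the test without overlap (mean log2 CPM 1 or above), and per list the 2 smallest p, the largest p and members against the list's direction, with any member of lists of up to 16 entries. H2-K1, H2-D1, B2m, Purb, Capn15 and Zp3 fall outside it. The comparison and the lists were chosen with earlier results of these data known. Promoter windows are RefSeq's.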

Additional observations from a re-analysis of the deposited data

Results flagged for a closer look

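In groups of 5 libraries, a library was singled out for a gene by its distance to the nearest other library. That distance had to take up more of the group's range than Dixon's critical value for 5 samples. For normally distributed values chance gives this in about 1 of 20 groups. CPM values need not be so distributed, and the chance share here may be higher. Over the named genes, 330 such groups of 5 were examined and 37 values were singled out. Model 3 accounted for 14 of these values and was the highest of its group in each. For Ciita it was at 66.5 CPM (others 8.43 to 16.3), for H2-Ab1 at 576 and for H2-DMa at 67.4. It was at 35.1 CPM for Cxcl9, 60.2 for Irf5, 74.7 for Tgtp2, 67.4 for Herc6, 509 for Tapbp and 0.85 for Ubd. Il12rb1 was there at 3.28 CPM, Cd40 at 2.85, Cd86 at 10.9, Fcgr4 at 14.2 and Cybb at 56.2.

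Model 2 was the highest of its group for 8 genes. Cbr2 was at 516 CPM (others 9.23 to 50.6), Itgam at 106, Pcp4l1 at 118 and Pkp4 at 128. Irf7 was at 44.2 CPM, Irf9 at 65.3, Parp14 at 78 and Il18bp at 19.1. Model 5 was the highest for H2-Ob at 24.2 CPM, Sod2 at 153 CPM and Ido1 at 0.226 CPM, and Model 4 the lowest for Pdcd1lg2 at 0 CPM.

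LNPIFN-Y 5 was the highest of its group for Upk1b at 334 CPM (others 67.2 to 110), Psmb6 at 130 and Canx at 796, and the lowest for Tigit at 89.9 and Fkbp4 at 132. LNPIFN-Y 1 was the highest for Cd274 at 333 CPM (others 116 to 168), Lag3 at 12.5 and Mavs at 145. LNPIFN-Y 2 was the highest for Pdcd1lg2 at 4.13 CPM, LNPIFN-Y 3 for Cd209d at 0.0569 CPM and LNPIFN-Y 4 for Purb at 181 CPM.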

How the results depend on the processing

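The count of 825 higher genes became 543 with the 2 groups fitted alone and 1339 with sample quality weights, and 595 to 1246 with a library left out. The count of 89 lower genes became 488 with DESeq2, 8 with the 2 groups alone, 219 with library size alone, 580 with sample weights and 24 with tissue covariates, and 29 to 486 with a library left out. With library size alone the median of all genes moved by -0.101 on the log2 scale. With the replicate number as a block, 685 genes were higher and 33 lower. Deviations of same-numbered libraries from their group means correlated at 0.0414, -0.308, -0.509, 0.334 and -0.373 for numbers 1 to 5. The labels do not say whether equal numbers share an animal, litter or day. These correlations cannot exclude it, since tissue content also varied between libraries. Of 165 named genes 119 passed the test, and 94 of these kept the call in every alternative. Over all alternatives 156 values lost a call, 18 gained one and 0 were reversed. The most calls among named genes were lost with tissue covariates (21), the 2 groups alone (19) and the block (13). The cause of these shifts was not tested. Low counts limit Ifi214, Cd209d and Grem1.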

Other observations

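Red blood cell genes had log2 fold changes between 1.31 and 1.39 for all 5 tested members, and 0 passed edgeR's test, while 5 were called with sample quality weights. Their summed level ran from 110 to 834 CPM in Model and from 112 to 1266 CPM in LNPIFN-Y. Of 21 cholesterol synthesis genes 2 had a fold change above 0, with a list median of -0.50 and 0 past edgeR's test, and DESeq2 called 2 lower. Of 15 adipocyte genes 0 passed the test, with a median of 0.62. That median was -0.11 without LNPIFN-Y 1, the library with the highest summed level, 12941 CPM, and 0.85 without LNPIFN-Y 2.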
